A study of Homo sapiens with 3 samples.

Results

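The genes described here are those of glutathione metabolism and of the antioxidant programme driven by the transcription factor NRF2. The list had 53 members, fixed by name, and 51 of them had at least 1 probe set named for them alone, with 102 probe sets in all, among 19775 genes on the array. LANCL1 and PRDX5 were not analysed here. The samples were 3 RNA preparations, 1 each from the cisplatin-resistant subline MHCC97L/CisR, the doxorubicin-resistant subline MHCC97L/DoxR and the parental line MHCC97Low. MHCC97Low is a metastatic human hepatoma (hepatocellular carcinoma) cell line, both sublines were generated from it, and per the labels the cells received no treatment before RNA was taken. Each preparation was hybridised to 1 Affymetrix U133 Plus 2.0 array. Values are MAS5 signals, the linear intensity that Affymetrix's algorithm gives per probe set, and the brightest probe set on average stands for its gene. With a single array per line, the spread between cultures is unknown and no test was possible. A difference was called at 2-fold, which is 1 on the log2 scale, and signals at or under a floor of 76.9, the median of all values, were raised to it first.

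Glutathione is a small thiol made from glutamate, cysteine and glycine. It is used by peroxidases to reduce hydroperoxides and by transferases to conjugate electrophiles, among them activated drugs, and the liver makes and exports large amounts of it. NRF2, the product of NFE2L2, is held in the cytoplasm and degraded through KEAP1, and under oxidative or electrophilic stress it enters the nucleus, pairs with a small MAF protein and binds the antioxidant response element. Its known targets include enzymes of glutathione synthesis, quinone reduction, the thioredoxin system and NADPH supply. Cisplatin reacts with thiols, and doxorubicin can cycle between quinone and semiquinone forms that pass electrons to oxygen.

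The 3 arrays were scaled alike, with median signals of 79.2, 73.3 and 78.5 in the cisplatin-resistant, doxorubicin-resistant and parental arrays. Of the 13 hepatocyte and hepatoma markers, 11 were measured and 9, 8 and 10 of them lay above the floor. APOA1 was at or under the floor on all 3, ALB was under it in the cisplatin-resistant array, and FGA and FGB were under it in the doxorubicin-resistant array. In the cisplatin-resistant array 8 of the 10 markers compared were at least 2-fold below parental, all but the keratins KRT8 and KRT18. Among them TF, the iron carrier transferrin, was 21.0-fold lower, FGB 6.78-fold, AFP 4.53-fold, APOH 4.04-fold, FGA 3.60-fold, SERPINA1 3.09-fold, TTR 2.65-fold and ALB at least 20.1-fold lower. Against parental, 3 were at least 2-fold lower in MHCC97L/DoxR, TF by 12.2-fold, FGB by at least 25.7-fold and FGA by at least 7.28-fold. ALB was 2.02-fold higher there. Under 2-fold, APOH was 1.89-fold, AFP 1.76-fold, SERPINA1 1.34-fold and TTR 1.31-fold lower, while KRT8 and KRT18 were 1.16-fold and 1.18-fold higher. The median signal of the list was 234 in MHCC97L/CisR, 404.1 in MHCC97L/DoxR and 1545 in MHCC97Low, while its sums of 61922, 68728 and 67740 were mostly keratin signal, with KRT18 alone at 33602, 34849 and 29626. The leukocyte marker PTPRC, the endothelial markers CDH5, VWF and TEK and the fibroblast markers COL1A2, COL3A1 and PDGFRB were at or under the floor on every array. Others of these lists were above it on every array. In the same order of arrays, endothelial PECAM1 had 802, 827 and 1052 and KDR 285, 190 and 200. Leukocyte CD79A had 275, 382 and 377, and fibroblast COL1A1 had 511, 242 and 309. The red cell marker HBB was at 117, 150 and 154, with ALAS2 under the floor. The summed signal of the 6 fibroblast markers was 3305, 1528 and 742, with LUM at 2632, 1167 and 258, and the part of these shifts in the results below was not tested.

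Most antioxidant genes were within 2-fold of parental in both sublines. In the cisplatin-resistant array 2 of 49 compared members, GPX3 and GSTA4, were at least 2-fold higher and none was lower, while 2.82% of all 12699 genes compared were higher and 2.58% lower, 5.40% together. The members' share of 4.08% is near that of all genes. In the doxorubicin-resistant array 0 of 50 members reached 2-fold, against 5.75% of all 12599 genes, 2.99% higher and 2.75% lower. With no replicate there is no test behind these counts, and in bulk RNA fewer cells expressing a gene and less RNA per cell cannot be told apart. Between the sublines, GPX3 alone of 49 members was past 2-fold, lower in the doxorubicin-resistant array, while 3.32% of all 12593 genes were lower there and 3.05% higher, 6.37% together. Over the members, the log2 difference from parental had a median of 0.05 in MHCC97L/CisR and 0.06 in MHCC97L/DoxR, while over all genes compared it was 0.02 and 0.00.

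**Figure D1:**
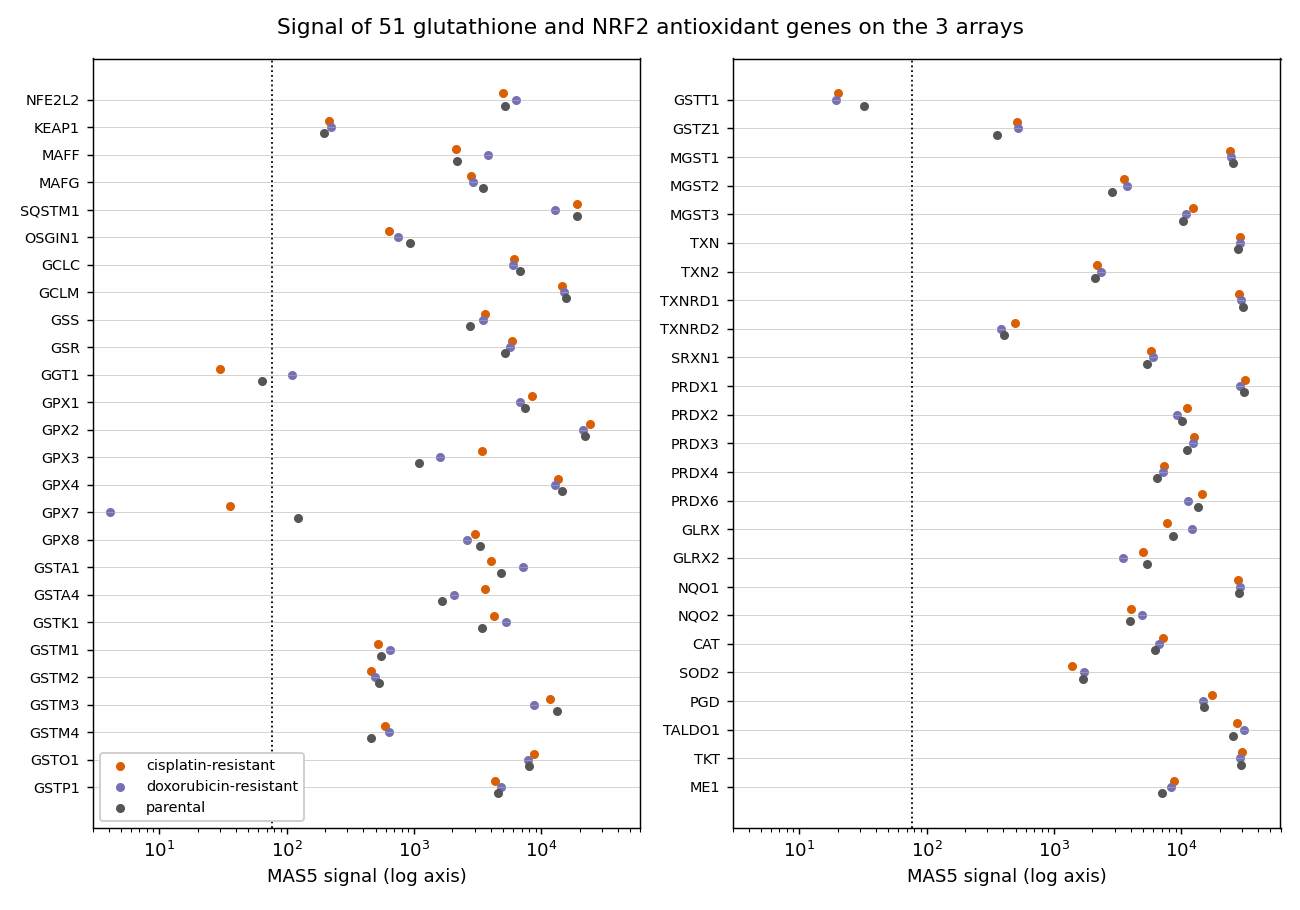
MAS5 signal (log axis) of the 51 measured members, in the order of their roles, with 1 point per array for the cisplatin-resistant, doxorubicin-resistant and parental lines and the floor of 76.9 as a dotted line. For most genes the points nearly coincide, while those of GPX3, GSTA4, GSTA1, MAFF, GLRX, GSTK1, GLRX2 and GSTM3 are more than 1.5-fold apart. GPX7 and GGT1 each have points on both sides of the floor, and those of GSTT1 all lie under it.

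Of the 51 members, 50 were above the floor on at least 1 array and 48 on all 3. Over these 48, the ratio of the highest to the lowest of the 3 signals had a median of 1.23, and 23 members (47.9%) stayed under 1.2-fold. The same ratio had a median of 1.33 over all 11129 genes above the floor on every array, of which 28.4% stayed under 1.2-fold. When genes were split by mean signal into 3 equal groups, 39.8% of the brightest group did so. Brighter probe sets differ less on these arrays. For calls, the brightest group was taken anew in each comparison, from the genes compared there. Between the cisplatin-resistant and parental arrays it held 41 of the 49 members compared. In that group 2 of 41 members (4.88%) were called in the cisplatin-resistant array, against 2.17% of all its genes. None of 41 was called in the doxorubicin-resistant array, against 2.36%, and 1 of 41 was called between the sublines, against 3.12%.

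**Figure D2:**
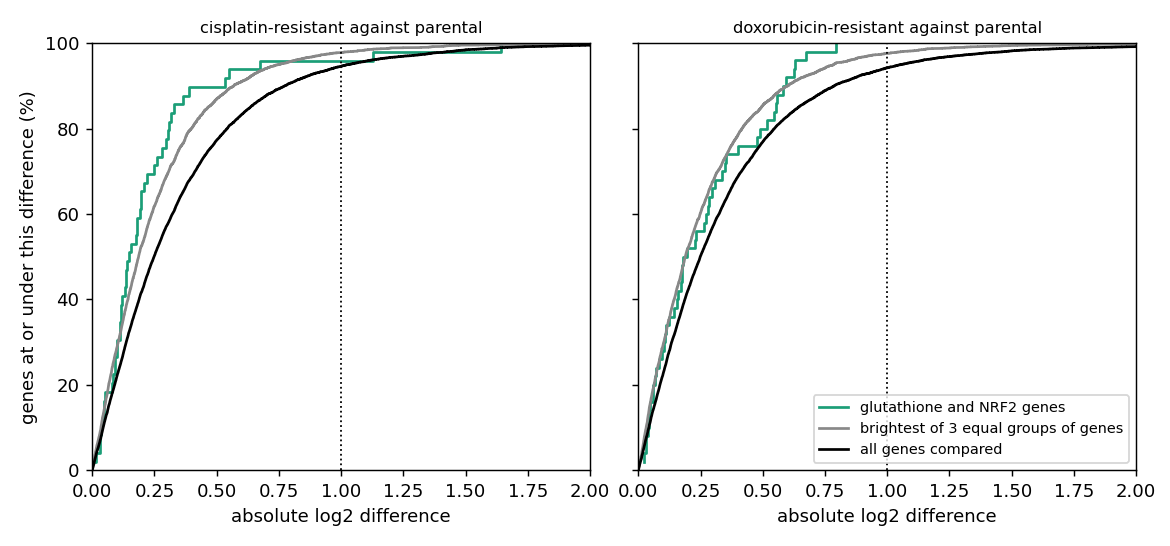
Share of genes (vertical axis, percent) at or under a given absolute log2 difference from parental (horizontal axis), in the cisplatin-resistant (left) and doxorubicin-resistant (right) arrays, for the members, for the brightest of 3 equal groups of genes and for all genes compared. The dotted line marks 2-fold. In the left panel 2 of 49 members lie beyond it, and in the right panel 0 of 50 do.

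The regulators were within 2-fold of parental by their brightest probe sets. NFE2L2, which encodes NRF2 itself, had signals of 5019 in MHCC97L/CisR, 6309 in MHCC97L/DoxR and 5187 in MHCC97Low. Its log2 differences from parental were -0.05 and 0.28, both within 2-fold, and of its dimmer probe sets 1, at signals of 54.3, 143 and 124, gave 0.20 in MHCC97L/DoxR and -0.69 in MHCC97L/CisR. Another, at 19.9, 39.2 and 88.4, gave -0.20 in both sublines, and this value and the -0.69 are bounds set by the floor, so these differences were at least that wide. KEAP1, the adaptor that delivers NRF2 to a ubiquitin ligase, had signals of 216, 225 and 196 in the same order of arrays, with differences of 0.14 and 0.20. Neither gene was called in either subline.

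The small MAF proteins are the DNA-binding partners of NRF2. MAFF had signals of 2142 in MHCC97L/CisR, 3799 in MHCC97L/DoxR and 2191 in MHCC97Low. The doxorubicin-resistant array stood apart from the others, which nearly coincided, and its difference from parental was 1.73-fold, the widest in this subline of any member above the floor on both arrays. The second MAFF probe set gave a log2 difference of 0.67 beside 0.79 for the first, so both pointed up and neither reached 2-fold. MAFG had signals of 2798, 2884 and 3482 and was a little lower in both sublines, by -0.32 and -0.27 on the log2 scale.

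SQSTM1 encodes p62, an autophagy receptor that binds KEAP1 and is also a target of NRF2. Its signals were 19001 in MHCC97L/CisR, 12893 in MHCC97L/DoxR and 18932 in MHCC97Low. The doxorubicin-resistant array was the low one, 1.47-fold below parental by this probe set. All 5 SQSTM1 probe sets were lower in it, with log2 differences from -0.23 to -1.33, whereas in the cisplatin-resistant array they ranged from -0.51 to 0.51. A single probe set, with signals of 768, 436 and 1093, was past 2-fold in the doxorubicin-resistant array. OSGIN1, an oxidative stress-induced growth inhibitor, had signals of 632, 753 and 926, with differences of -0.55 and -0.30.

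The glutathione synthesis genes were level across the 3 arrays. GCLC, the catalytic subunit of the rate-limiting glutamate-cysteine ligase, had signals of 6152 in MHCC97L/CisR, 6007 in MHCC97L/DoxR and 6780 in MHCC97Low. Its modifier subunit GCLM had 14564, 15079 and 15522. Their log2 differences from parental were -0.14 and -0.17 for GCLC, and -0.09 and -0.04 for GCLM. A second GCLC probe set was lower in both sublines, at -0.53 and -0.48, while the 3 GCLM probe sets lay between -0.34 and 0.10 in both comparisons.

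GSS, which adds glycine in the last step of synthesis, was slightly higher in both sublines, with signals of 3606, 3513 and 2755 in the cisplatin-resistant, doxorubicin-resistant and parental arrays. GSR, the reductase that returns oxidised glutathione to its thiol form, had 5903, 5694 and 5154. Neither passed 1.31-fold from parental. GGT1, the cell-surface enzyme that begins glutathione breakdown, was above the floor in the doxorubicin-resistant array alone, at a signal of 110, where its difference from parental was at least 1.43-fold.

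Among the glutathione peroxidases, GPX3 had the widest difference of all members above the floor on the arrays compared. GPX3 is the secreted, selenium-containing peroxidase of plasma. Its signals were 3444 in MHCC97L/CisR, 1607 in MHCC97L/DoxR and 1103 in MHCC97Low. The cisplatin-resistant array was therefore 3.12-fold above parental and the doxorubicin-resistant array 1.46-fold above it. The doxorubicin-resistant array was 2.14-fold below the cisplatin-resistant one. A second GPX3 probe set, with signals of 1250, 756 and 635, kept this order of the arrays, at log2 differences from parental of 0.98 and 0.25, which lie under 2-fold. GPX3 is on chromosome 5, and its neighbouring genes there had a median log2 difference of 0.06 in the cisplatin-resistant array.

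The other peroxidases were within 2-fold of parental or near the floor. GPX1, the cytosolic enzyme, had signals of 8447 in MHCC97L/CisR, 6835 in MHCC97L/DoxR and 7449 in MHCC97Low. GPX4, which reduces lipid hydroperoxides in membranes and restrains ferroptosis, had 13485, 12857 and 14567. The epithelial enzyme GPX2, a known NRF2 target, had 24012, 21141 and 22171. Differences from parental for these 3 genes by their brightest probe sets ran from -0.18 to 0.18 on the log2 scale. A second GPX2 probe set, at 891, 560 and 591, was 0.59 above parental in the cisplatin-resistant array and -0.08 from it in the doxorubicin-resistant one, with -0.67 between the sublines. GPX8, at 3033, 2608 and 3322, was lower in both sublines by both of its probe sets. They gave -0.13 and -0.36 in MHCC97L/CisR and -0.35 and -0.48 in MHCC97L/DoxR. GPX7, a peroxidase of the endoplasmic reticulum, had a signal of 123 in the parental array and was under the floor in both sublines, at 36.1 in MHCC97L/CisR and 4.09 in MHCC97L/DoxR. This gives a difference of at least 1.59-fold in each, from a single probe set close to the floor.

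GSTA4 was the other called gene. It encodes the alpha-class glutathione S-transferase that conjugates 4-hydroxynonenal, an aldehyde product of lipid peroxidation. Its signals were 3639 in MHCC97L/CisR, 2060 in MHCC97L/DoxR and 1664 in MHCC97Low. The cisplatin-resistant array was the high one, 2.19-fold above parental, and the doxorubicin-resistant array was 1.24-fold above it. A dimmer probe set, at 263, 251 and 157, gave log2 differences of 0.75 and 0.68, so by that probe set the sublines were alike and neither was called. GSTA1, a hepatocyte transferase of the same class, followed another order, with 4054, 7211 and 4819. It was highest in the doxorubicin-resistant array, 1.78-fold above the cisplatin-resistant one and 0.58 on the log2 scale above parental. Its second probe set, near the floor, pointed the other way, at -0.84 from parental in the doxorubicin-resistant array.

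The 2 called genes can be set beside each other in sequence. The windows below are from RefSeq on build GRCh38.p14 and hold the 250 bases before and 50 bases after the annotated start, in the direction of the gene, with capitals marking a match to the core of the antioxidant response element, TGACNNNGC. The first lies at chr5:151020341-151020640 on the plus strand and the second at chr6:52995235-52995534 on the minus strand.
GPX3: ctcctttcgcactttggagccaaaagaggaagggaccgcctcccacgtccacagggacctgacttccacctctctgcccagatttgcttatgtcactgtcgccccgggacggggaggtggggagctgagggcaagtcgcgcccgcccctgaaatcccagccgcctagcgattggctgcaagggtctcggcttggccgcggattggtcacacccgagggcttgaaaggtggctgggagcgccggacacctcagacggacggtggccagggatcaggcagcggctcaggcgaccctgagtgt
GSTA4: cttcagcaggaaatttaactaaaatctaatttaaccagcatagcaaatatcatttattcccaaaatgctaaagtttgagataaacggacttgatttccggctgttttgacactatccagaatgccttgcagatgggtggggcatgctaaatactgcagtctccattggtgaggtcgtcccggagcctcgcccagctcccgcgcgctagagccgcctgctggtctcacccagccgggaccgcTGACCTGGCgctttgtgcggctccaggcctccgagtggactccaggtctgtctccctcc
The GPX3 window holds no match on either strand, and the GSTA4 window holds 1, at chr6:52995285-52995293.

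The same core was looked for on both strands in the windows of the 44 members with a probe set that the RefSeq table holds. It was found for 13 of these genes (29.5%), against 18.4% of the 15384 genes with a probe set and a window, and in 14 of the members' 62 windows (22.6%), against 14.3% of the windows of all such genes. Several matches are shown for genes whose signals are given in this text. Each has its flanks and is written in the direction of the motif, with the core in capitals. They are a selection, since TXNRD1 and ME1 have further matches and other members, KEAP1 among them, have matches too.
GCLM: gaagacaaTGACTAAGCagaaatcg
GPX2: ccccaggaTGACTTAGCaaaaacag
GSTP1: cggcgccgTGACTCAGCactggggc
ME1: tcctgccaTGACTCAGCgcttctcg
TXNRD1: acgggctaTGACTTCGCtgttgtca
MAFF: cccccgtaTGACCCCGCcccctgga
The cores lie at chr1:93909456-93909464 for GCLM, chr14:64942859-64942867 for GPX2, chr11:67583746-67583754 for GSTP1, chr6:83431180-83431188 for ME1, chr12:104215680-104215688 for TXNRD1 and chr22:38201872-38201880 for MAFF. A match to these letters is not a shown binding site. For the members with a match, log2 differences from parental had medians of 0.04 in MHCC97L/CisR, with 1 of 12 called (GSTA4), and 0.07 in MHCC97L/DoxR, with 0 of 13 called. Members with a window and no match had medians of 0.02 and 0.03, with 1 of 31 called (GPX3) and 0 of 31. Over all genes compared, 5.40% were called in the cisplatin-resistant array and 5.75% in the doxorubicin-resistant one.

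The remaining transferases included GSTP1, the pi-class enzyme long studied in platinum resistance. It had signals of 4333 in MHCC97L/CisR, 4834 in MHCC97L/DoxR and 4595 in MHCC97Low, which lie within 1.12-fold of each other. GSTK1, the kappa-class enzyme of mitochondria and peroxisomes, had 4211, 5266 and 3408 and was 1.55-fold above parental in the doxorubicin-resistant array. It lies on chromosome 7, where its neighbouring genes had a median log2 difference of 0.27 in that array, and 0.36 of its own 0.63 was left after this was subtracted. GSTZ1, which also isomerises maleylacetoacetate in tyrosine breakdown, was higher in both sublines, at 513, 521 and 355, by 1.45-fold and 1.47-fold.

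The mu-class genes lie next to each other on chromosome 1 and have closely related sequences. Several of their probe sets carry the suffix by which Affymetrix marks probes that can cross-hybridise, so signal may be shared among GSTM1, GSTM2 and GSTM4 and these genes cannot be cleanly told apart. GSTM1 had signals of 521 in MHCC97L/CisR, 651 in MHCC97L/DoxR and 555 in MHCC97Low, GSTM2 had 458, 491 and 529, and GSTM4 had 593, 641 and 460. Their differences from parental ran from -0.21 to 0.48 on the log2 scale. The 2 GSTM1 probe sets disagreed in sign in the cisplatin-resistant array, at -0.09 and 0.48.

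GSTM3 is the most divergent of these mu-class genes. Its signals were 11728 in MHCC97L/CisR, 8821 in MHCC97L/DoxR and 13304 in MHCC97Low. The doxorubicin-resistant array was the lowest by both probe sets, with log2 differences from parental of -0.59 and -1.14. The second of these, with signals of 352, 189 and 418, was past 2-fold. By their brightest probe sets, GSTO1, an omega-class enzyme, and the membrane-bound MGST1, MGST2 and MGST3 had differences from parental between -0.08 and 0.40. By its brightest probe set MGST1 stayed within 1.06-fold over the 3 arrays. The other compared probe sets of GSTO1 and MGST1 lay between -0.23 and 0.19. A dimmer MGST3 probe set, at 47.3, 31.4 and 142, gave -0.88 in both sublines, a bound set by the floor. GSTT1, a theta-class gene that is deleted in many people, was at or under the floor on all 3 arrays by both of its probe sets.

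The thioredoxin system reduces protein disulfides in parallel with glutathione. TXN, thioredoxin itself, had signals of 29083 in MHCC97L/CisR, 28851 in MHCC97L/DoxR and 28034 in MHCC97Low. TXNRD1, its cytosolic selenoprotein reductase, had 28574, 29608 and 30580. SRXN1, which repairs overoxidised peroxiredoxins and is a sensitive NRF2 target, had 5785, 6023 and 5348. The quinone reductase NQO1, the classical NRF2 target, had 27861, 29005 and 28532. The ratio of highest to lowest of these signals over the 3 arrays was 1.04 for TXN, 1.07 for TXNRD1 and 1.04 for NQO1. By their brightest probe sets, no difference of these 4 genes from parental passed 0.17 on the log2 scale.

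Several of these signals lie high on the array, where the highest signals of all were 44066, 52776 and 47009. Every signal was at least 20000 for 8 members, namely GPX2, MGST1, TXN, TXNRD1, PRDX1, NQO1, TALDO1 and TKT. Whether differences are compressed at such brightness was not tested. A dimmer TXN probe set gave log2 differences from parental of -0.11 and -0.27, and the other NQO1 probe sets gave 0.20 and 0.21 in MHCC97L/CisR and 0.21 and -0.02 in MHCC97L/DoxR, all within 2-fold.

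The peroxiredoxins, which reduce hydrogen peroxide, were near parental level by their brightest probe sets. PRDX1 had signals of 31706 in MHCC97L/CisR, 29076 in MHCC97L/DoxR and 31035 in MHCC97Low. The mitochondrial PRDX3 and the endoplasmic reticulum enzyme PRDX4 were slightly higher in both sublines, by 0.20 and 0.16 for PRDX3 and by 0.18 and 0.15 for PRDX4 on the log2 scale. A dimmer PRDX3 probe set, at 130, 84.4 and 104, gave 0.32 and -0.31. By their brightest probe sets PRDX2 and PRDX6 were a little lower in the doxorubicin-resistant array alone, at -0.11 and -0.26. The second PRDX6 probe set gave -0.56 there. The other PRDX2 probe sets gave -0.38, -0.55 and -0.88 there. The -0.88 is a bound set by the floor, and that probe set gave the same bound in MHCC97L/CisR.

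The glutaredoxins use glutathione to reduce mixed disulfides, and the 2 on the list, GLRX and GLRX2, differed in opposite directions in the doxorubicin-resistant array. GLRX3 and GLRX5, which are not members, were -0.11 and 0.24 from parental there. The cytosolic GLRX had signals of 7767 in MHCC97L/CisR, 12145 in MHCC97L/DoxR and 8656 in MHCC97Low. The doxorubicin-resistant array was the high one by both probe sets, 0.49 and 0.55 above parental and 0.64 and 0.87 above the cisplatin-resistant array on the log2 scale. The mitochondrial GLRX2 had 4968, 3486 and 5382, so the doxorubicin-resistant array was the low one, 1.54-fold below parental. None of these differences from parental reached 2-fold.

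**Figure D3:**
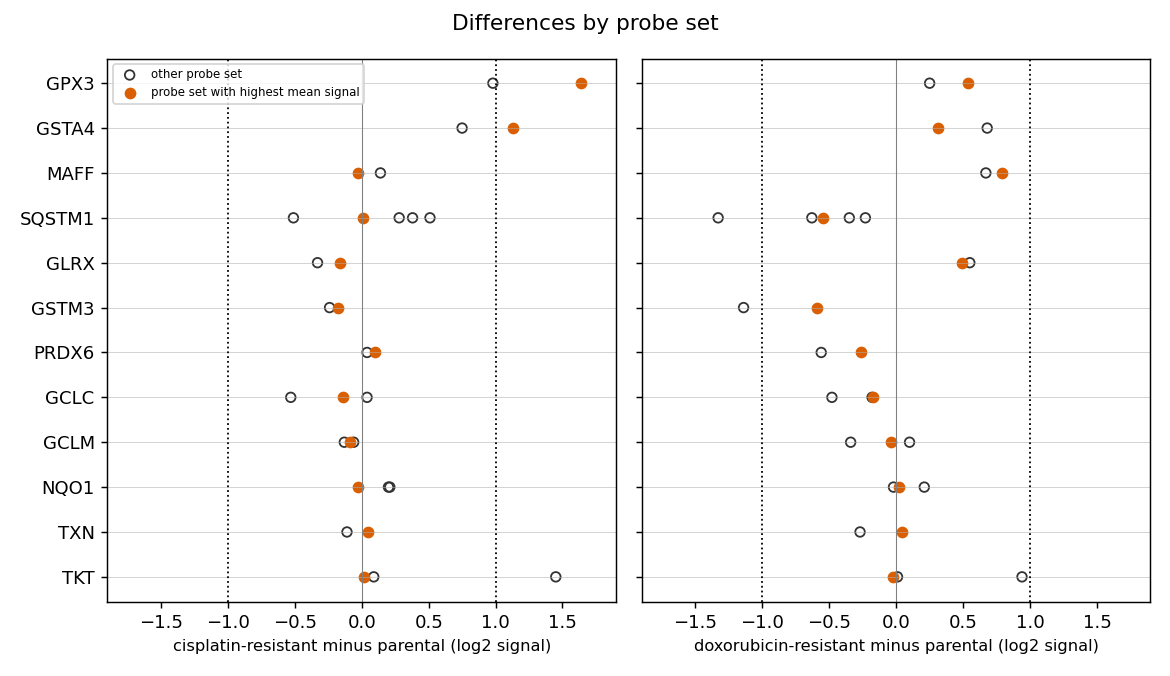
Log2 difference from parental (horizontal axes) of every compared probe set of 12 members, in the cisplatin-resistant (left) and doxorubicin-resistant (right) arrays. Filled points are the probe set with the highest mean signal, open points the others, and dotted lines mark 2-fold. Both GPX3 and both GSTA4 probe sets lie to the right of 0 in each panel, all 5 SQSTM1 probe sets lie to the left of 0 in the right panel, and 1 of 3 TKT probe sets lies apart from the others.

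GLRX2, PRDX6 and MGST3 are on chromosome 1, where their neighbours were lower in the doxorubicin-resistant array. The median log2 difference of up to 20 neighbouring genes was -0.60 around GLRX2, -0.44 around PRDX6 and -0.41 around MGST3. With it subtracted, GLRX2 was at -0.03, PRDX6 at 0.18 and MGST3 at 0.50. The neighbours of SQSTM1 on chromosome 5 had a median of -0.26, those of TALDO1 on chromosome 11 one of 0.52, and those of MAFF on chromosome 22 and GLRX on chromosome 5 medians of -0.02 and -0.07.

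**Figure D4:**
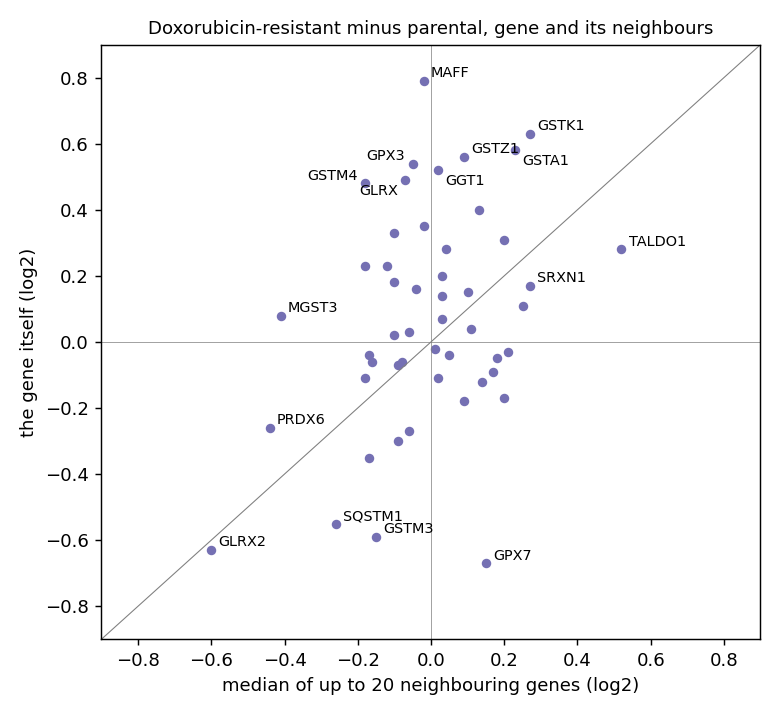
Log2 difference between the doxorubicin-resistant and parental arrays for each member (vertical axis) against the median difference of its neighbouring genes on the chromosome (horizontal axis), with the line of equal values. GLRX2 lies on the line at -0.60 and -0.63, whereas MAFF lies far from it at -0.02 and 0.79.

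Catalase (CAT), which breaks down hydrogen peroxide in peroxisomes, had signals of 7178 in MHCC97L/CisR, 6647 in MHCC97L/DoxR and 6163 in MHCC97Low, with differences of 0.22 and 0.11. The mitochondrial superoxide dismutase SOD2 was represented by 1 probe set, at 1384, 1734 and 1699. A further 4 probe sets named for both SOD2 and SOD2-OT1 were not counted. The flavoprotein NQO2 was 0.04 and 0.33 above parental.

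NADPH is the reductant that both the glutathione and thioredoxin systems draw on. The pentose phosphate enzymes PGD, TALDO1 and TKT and the malic enzyme ME1 were 0.02 to 0.31 above parental on the log2 scale in the cisplatin-resistant array. In the doxorubicin-resistant array they lay between -0.04 and 0.28. ME1 had signals of 8804 in MHCC97L/CisR, 8325 in MHCC97L/DoxR and 7100 in MHCC97Low, and its second probe set gave 0.40 and 0.27. For TKT, transketolase, the probe sets disagreed in size. Its brightest had 29692, 28878 and 29361, while a dimmer one, chosen for mention after its values were seen, had 2022, 1416 and 739, which is 1.45 and 0.94 above parental on the log2 scale.

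**Figure D5:**
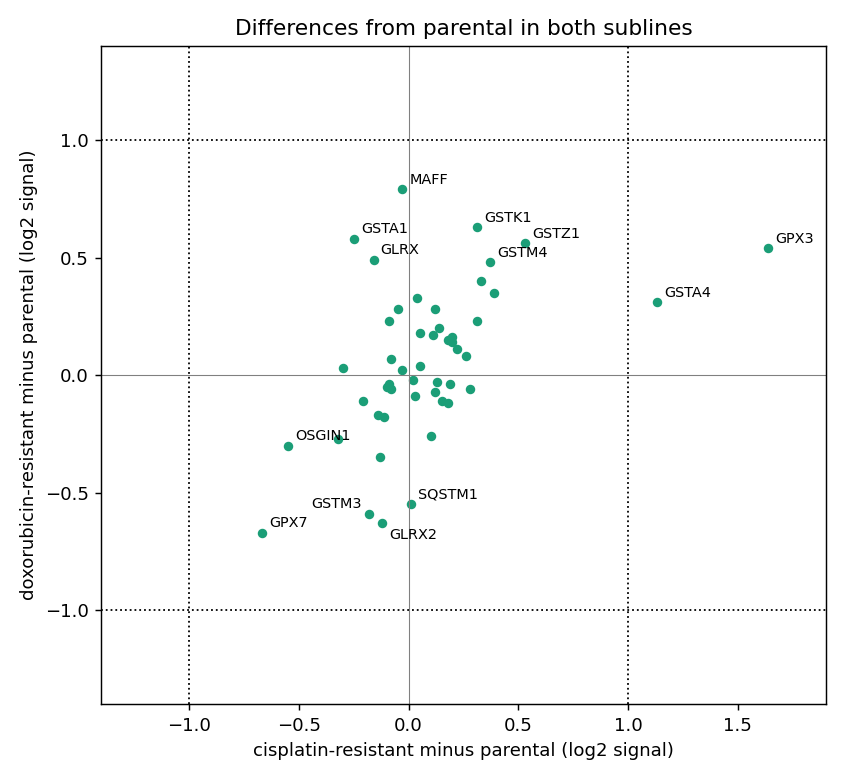
Log2 difference from parental of each compared member in the cisplatin-resistant (horizontal axis) and doxorubicin-resistant (vertical axis) arrays, with dotted lines at 2-fold. Both axes share the parental array. GPX3 and GSTA4 lie beyond the line on the horizontal axis at 1.64 and 1.13, and no member lies beyond a line on the vertical axis.

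Members with several compared probe sets often had small differences of mixed sign. In the cisplatin-resistant array 19 of 32 such members had all probe sets in 1 direction, and in the doxorubicin-resistant array 22 of 32 did. At a 1.5-fold limit, 3 of 49 members (6.12%) differed from parental in the cisplatin-resistant array, against 17.6% of all genes compared and 9.40% of the brightest group. In the doxorubicin-resistant array 5 of 50 (10.0%) did, against 17.7% and 10.4%. These 5 were MAFF and GSTK1, which were higher, and GLRX2, GPX7 and GSTM3, which were lower. Both comparisons share the parental array. Between the sublines 5 of 49 members (10.2%) passed this limit, against 19.1% of all genes and 12.1% of the brightest group. In the doxorubicin-resistant array MAFF, GSTA1 and GLRX were the higher ones and GPX3 and GSTA4 the lower ones.

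A further 57 measured genes of the pathway, which are not on the list of members, are given for comparison. In the cisplatin-resistant array 4 of 55 (7.27%) were higher, against 2.82% of all genes, and 1 (1.82%) was lower, against 2.58%, which together make 9.09% against 5.40%. Haem oxygenase HMOX1, an NRF2 and BACH1 target, was the lower one, with signals of 1564 in MHCC97L/CisR, 5584 in MHCC97L/DoxR and 9642 in MHCC97Low. The higher ones were the omega-class transferase GSTO2 at 741, 656 and 204, the methionine sulfoxide reductase MSRB2 at 5545, 2237 and 2478, the iron-binding nuclear protein PIR at 1997, 1003 and 929, and the sestrin SESN3, above the floor in the cisplatin-resistant array alone at 279. Their folds over parental in this subline were 3.64, 2.24, 2.15 and at least 3.63.

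In the doxorubicin-resistant array 2 of 54 of these other genes (3.70%) were called, both higher, against 5.75% of all genes in either direction and 2.99% higher. They were GSTO2, 3.22-fold above parental, and CHAC1, an ATF4-induced enzyme that degrades glutathione, at signals of 202 in MHCC97L/CisR, 795 in MHCC97L/DoxR and 324 in MHCC97Low. GSTO2 was thus called in both sublines, each measured against the same parental array. The other omega-class gene GSTO1 stayed within 1.12-fold over the 3 arrays by its brightest probe set and within 1.22-fold by its second. Between the sublines, CHAC1, HMOX1 and SESN2 were more than 2-fold higher in the doxorubicin-resistant array, and SESN3, MSRB2, IDH2 and GSTT2 more than 2-fold lower. These 7 of 55 make 12.7%, against 6.37% of all genes. The median log2 difference from parental over these genes was 0.15 in MHCC97L/CisR and 0.09 in MHCC97L/DoxR.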

How the data were processed

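The deposited values are a linear intensity for each probe set. The authors made them with MAS5, per the submitters' processing notes, in a version not given in the sources used here. Leaving out the dimmest and brightest 2% of probe sets, each array had a mean signal of 500.1, as global scaling would give. MAS5 subtracts mismatch signal, which makes low values noisy. Detection calls were not used here.

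Names came from the platform's annotation, and symbols were brought up to date by Entrez identifier from a RefSeq table of GRCh38.p14. Of 54675 probe sets, 41091 had 1 gene symbol (99.9% matched), 1801 had several and named no gene, 11721 are unnamed here and 62 are controls. A gene was compared when at least 1 of its 2 signals lay above the floor, and "at least" marks a fold with a value at or under it. Differences are of log2 signal, the subline minus parental or the doxorubicin-resistant minus the cisplatin-resistant array. No p-value or SD between samples was computed, and 1 array a line sets the precision. Members and gene lists were chosen with earlier results of these data known. By rule, 26 members are given on every array, those past 1.5-fold in any comparison and 17 fixed key genes. Neighbours were the 10 nearest compared genes on either side. Recovery of a set fold in bright genes was tested on data simulated from the parental array. Other steps, such as the neighbour medians and the promoter search, were not tested in this way. Python 3.11.15, pandas 2.3.3, numpy 2.4.6 and matplotlib 3.10.9 were used.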

Additional observations from a re-analysis of the deposited data

How the results depend on the processing

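No paired analysis was possible because each group has 1 array. Another 10 settings were tried, and the members' medians stayed within 0.1 of those reported in all that give one. In the cisplatin-resistant array, 2 members called became 4 with the floor at the 25th percentile, 3 with a pseudocount of 16 and no floor (GPX7 at -1.41), 3 without probe sets of suffix x or s (TKT at 1.45), 3 at 1.5-fold (GPX7 at -0.67), and 1 with the median over probe sets, where GSTA4 was under 2-fold at 0.94. In the doxorubicin-resistant array, 0 called became 1 with the floor at the 25th percentile, with a pseudocount of 16 and no floor, and with the median over probe sets, 2 without probe sets of suffix x or s, and 5 at 1.5-fold. GPX7 was the gene added by the lower floor (-2.66) and the pseudocount (-2.79), SQSTM1 by the median (-1.33), and SQSTM1 (-1.33) and GSTM3 (-1.14) without the suffixed probe sets. Between the sublines, 1 became 2 with the floor at the 25th percentile and with the pseudocount, 0 with the median over probe sets, where GPX3 was at -0.91, and 5 at 1.5-fold. With neighbours subtracted GPX3 was at -0.96 and GSTA4 at -1.04 there. Over all genes, 686, 724 and 802 calls (cisplatin-resistant and doxorubicin-resistant against parental, and between sublines) became 2044, 2103 and 2201 with the floor at the 25th percentile, 231, 260 and 321 at the 75th, and 2229, 2233 and 2401 at 1.5-fold. The number of genes compared changed with the floor. In the cisplatin-resistant array the 25th percentile gave 4 of 51 members beside 2044 of 17374 genes. The 75th gave 2 of 47 beside 231 of 8380, and the pseudocount 3 of 49 beside 909 of 12699. As reported there were 2 of 49 beside 686 of 12699. GPX3 kept its 2-fold call against parental in the cisplatin-resistant array in every setting. Signal near or under the floor limits GPX7, GGT1 and GSTT1.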
